A study of Mus musculus with 6 samples.

Results

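Asparagine-linked (N-linked) glycosylation genes were compared between Pml knockout and wild-type mouse embryonic stem cells. The set held 38 genes, found by symbol in a deposited table of 24421 genes, and each was listed once. It was assembled around Alg13, which was known from earlier results of these data to be lower in the knockout. The other 37 genes belong to the pathway and are grouped here by their place in it. The fall of Alg13 is therefore given as a description with no test.

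Polyadenylated RNA was sequenced from E14 cells, a mouse embryonic stem cell line, with 3 libraries of the genotype Pml-/- (Pml knockout) and 3 libraries of wild-type cells. Both groups were grown in medium with serum, leukemia inhibitory factor, CHIR99021 (an inhibitor of the kinase GSK3) and PD0325901 (an inhibitor of the kinase MEK). The product of Pml builds PML nuclear bodies, assemblies that gather SUMO-modified proteins in the nucleus. The labels do not say which part of Pml was disrupted, how many knockout clones were used, or whether replicates were separate cultures, and the names of the 3 knockout columns share the prefix KO34. P-values thus rest on how far these libraries vary, possibly for technical reasons alone, and a difference between the lines cannot be told apart from an effect of Pml.

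N-glycosylation builds a branched sugar on a lipid carrier, dolichol, in the membrane of the endoplasmic reticulum and hands it to asparagines of proteins as they enter that compartment. Sugar donors are made in the cytosol, the first sugars are added on the cytosolic face, the lipid-linked chain is flipped, and the rest is added on the lumenal face. The oligosaccharyltransferase complex then moves the chain to the protein, glucosidases and mannosidases trim it during folding, and Golgi enzymes branch it. Adhesion molecules and growth factor receptors at the surface of embryonic stem cells are among the proteins that carry such chains. Alg13 and Alg14 together form the enzyme that adds the second N-acetylglucosamine to dolichol: Alg13 carries the catalytic activity and Alg14 anchors it to the membrane.

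The knockout libraries held 7584503, 5845653 and 8693079 counted reads, and the wild-type libraries held 11046725, 10325194 and 9389186. CPM stands for a gene's reads scaled to a library of 1000000 reads, and means come with the SD over n = 3 libraries. Log2 fold changes are knockout over wild type and were taken on log2(CPM + 1), so that changes of genes with low values are understated. Pml stood at 76.3 ± 0.912 CPM in knockout cells and 191 ± 4.09 CPM in wild-type cells, so reads of the gene remained. The embryonic stem cell markers Pou5f1, Nanog, Sox2, Zfp42, Esrrb and Dppa5a summed to between 6501 and 6726 CPM in knockout libraries and between 6438 and 6580 CPM in wild-type libraries, and 0 of the 6 passed the test of limma (1 had an unadjusted p under 0.05; edgeR and DESeq2 also called 0). Other cell types' lists were low: 4 primitive endoderm markers summed to at most 2.19 and 2.03 CPM in knockout and wild-type libraries, and 6 fibroblast markers to at most 5.65 and 11.3 CPM, with Dcn and Postn at 0. Neural markers summed to between 90.5 and 96.8 CPM in knockout libraries and between 132 and 144 CPM in wild-type libraries, mostly Tubb3, and 4 trophoblast markers to between 9.41 and 11.5 CPM against between 12.4 and 15.03 CPM, with Elf5 at 0. The 6 Y-linked genes examined summed to between 2.24 and 2.76 CPM in knockout libraries and between 236 and 245 CPM in wild-type libraries. Of the 13 cell type markers tested, limma called 4 (30.8%), against 14.0% of all genes tested. These were Thy1, Nes, Tubb3 and Cdx2, all lower in knockout cells, with log2 fold changes down to -0.95. Over all genes tested, 7.49% were called lower. The part of these differences in the results was not tested.

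Sequences around the start sites of both partners of the enzyme are printed because the main contrast lies between Alg13 and Alg14. Each runs from 250 bases before to 50 bases after the RefSeq start (GRCm38.p6, the build also called mm10), and capitals mark the motifs searched. The Alg13 window is chrX:144317716-144318015 on the + strand and the Alg14 window is chr3:121291490-121291789 on the + strand.
Alg13: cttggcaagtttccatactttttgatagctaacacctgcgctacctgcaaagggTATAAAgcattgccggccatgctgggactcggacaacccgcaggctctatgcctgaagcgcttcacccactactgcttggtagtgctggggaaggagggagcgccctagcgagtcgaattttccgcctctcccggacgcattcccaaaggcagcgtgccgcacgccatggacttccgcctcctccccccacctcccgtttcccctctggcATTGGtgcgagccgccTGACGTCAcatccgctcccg
Alg14: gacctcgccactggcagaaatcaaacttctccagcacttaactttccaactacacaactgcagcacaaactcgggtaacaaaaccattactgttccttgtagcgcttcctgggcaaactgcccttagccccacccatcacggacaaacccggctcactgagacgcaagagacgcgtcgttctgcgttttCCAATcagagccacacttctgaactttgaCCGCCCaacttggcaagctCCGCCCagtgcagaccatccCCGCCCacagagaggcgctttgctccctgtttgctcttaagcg
Both strands were searched for the CCAAT box, spelled CCAAT, and for the GC box. The letters of the GC box are GGGCGG. An E-box was searched as the letters CACGTG. The core of the cyclic AMP response element was searched as TGACGTCA. The TATA box was searched as TATAAA. The endoplasmic reticulum stress element, searched by its consensus, contains the CCAAT letters. The Alg13 window held 1 CCAAT, 1 TGACGTCA and 1 TATAAA, and no GC box. Alg14's window held 1 CCAAT and 3 GC boxes. Of 32841 promoter windows of this length in the RefSeq table, 1.79% held TGACGTCA, 13.6% held TATAAA, 37.4% held CCAAT and 35.7% held the GC box.
Promoter windows were in the table for 33 of the 38 genes, 36 windows in all. The GC box was in 26 of the 36, TATAAA in 2, CCAAT in 17, the E-box in 4 (11.1%, against 7.15% of all windows), and TGACGTCA in the Alg13 window alone. The endoplasmic reticulum stress element was in the Alg12 window, against 0.119% of all windows. That window, which ends at 88819568, also lies just before Creld2, which starts at 88819646 on the opposite strand. Creld2 is 1 of the unfolded protein response genes examined further on. The 36 windows held between 2 and 38 CpG dinucleotides with a median of 23, against a median of 7 over all windows. The windows of Alg13 and Alg14 held 21 and 15. A match in these letters is a description of sequence and says nothing of which factors bind.

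Alg13 stood far below its wild-type level in all knockout libraries. Its values were 97.8, 94.9 and 92.7 CPM in knockout libraries, against 338, 335 and 347 CPM in wild-type libraries. The knockout libraries lay close together and far below the wild-type libraries, with no overlap. Mean levels were 95.2 ± 2.56 CPM in knockout cells and 340.1 ± 6.39 CPM in wild-type cells, a log2 fold change of -1.83 (SE 0.0371). By pooled reads, 2103 in knockout and 10453 in wild-type libraries, knockout cells had 28.0% of the level in wild-type cells (95% exact bounds 26.7% and 29.3%, counting error only). In the authors' deposited table the log2 fold change of Alg13 is -1.85. Of the 12435 genes that passed the filter on low counts, 25 had a lower log2 fold change than Alg13. These 25 include 14 X-linked genes and the 5 Y-linked genes tested, the latter at -5.64 to -2.20. Of all 12435 genes, 434 were X-linked, Alg13 among them. Among the 2243 genes past the filter with a mean of at least 100 CPM in wild-type cells, 1 lay lower than Alg13. In RNA from whole cultures, fewer cells that express a gene and less of its RNA per cell cannot be told apart.

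Alg14, the membrane anchor of the same enzyme, was at nearly the same level in both groups. It had 10.8, 9.58 and 10.6 CPM in knockout libraries, against 9.23, 10.1 and 10.7 CPM in wild-type libraries. The ranges overlapped, the log2 fold change was 0.04 (95% interval -0.19 to 0.28), and the limma adjusted p was 0.853. With 230 knockout and 306 wild-type reads, changes of Alg14 within those bounds remain compatible with the data. The difference between the Alg13 and Alg14 log2 fold changes was -1.87; it follows from the fall that led to the choice of Alg13 and was not tested.

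**Figure D1:**
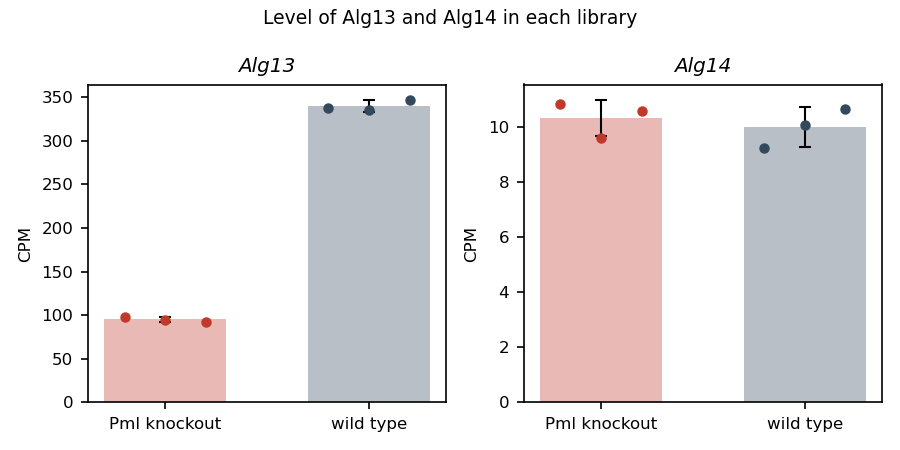
CPM of Alg13 (left panel) and Alg14 (right panel) in the 3 Pml knockout and 3 wild-type libraries. Points are libraries, bars are means and error bars are SD; the y axes start at 0 and differ in scale. Alg13 is at 92.7 to 97.8 CPM in the knockout and 335 to 347 CPM in wild type, while the Alg14 ranges overlap.

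Per length of transcript, the catalytic subunit was listed above its anchor in every library. With CPM divided by the kilobases of merged exons in the GENCODE M21 annotation (6850 bases for Alg13, 2502 for Alg14), the ratio of Alg13 to Alg14 was 3.31, 3.62 and 3.20 in knockout libraries, against 13.4, 12.2 and 11.9 in wild-type libraries. Means were 3.38 ± 0.219 in knockout cells and 12.5 ± 0.776 in wild-type cells. The size of this ratio rests on which transcripts are made, since Alg13 has 14 annotated transcripts, of which 3 are protein-coding and between 479 and 1802 bases long, and the longest of all is 4168 bases. With the longest protein-coding transcript as the length, the ratio was 10.4 ± 0.676 in knockout cells and 38.6 ± 2.40 in wild-type cells. The table has 1 value per gene, so which Alg13 transcripts fell was not tested.

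By CPM per kb of merged exons, Alg13 ranked 19 in knockout cells and 5 in wild-type cells among the 37 genes past the filter. In knockout cells it stood at 13.9 CPM per kb and in wild-type cells at 49.6 CPM per kb. The wild-type level was close to that of Rpn1, a ribophorin subunit of the oligosaccharyltransferase, at 47.1 CPM per kb in knockout and 48.9 CPM per kb in wild-type cells. The knockout level was close to that of Alg2, a cytosolic mannosyltransferase, at 13.4 CPM per kb in knockout and 13.2 CPM per kb in wild-type cells. Alg14 ranked 35 in both groups. These places depend on the length used. By the longest protein-coding transcript, Alg13 ranked 8 in knockout cells and 1 in wild-type cells, at 52.8 and 188.7 CPM per kb. Rpn1 then stood at 58.5 and 60.7 CPM per kb and Alg2 at 15.4 and 15.1 CPM per kb in knockout and wild-type cells.

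**Figure D2:**
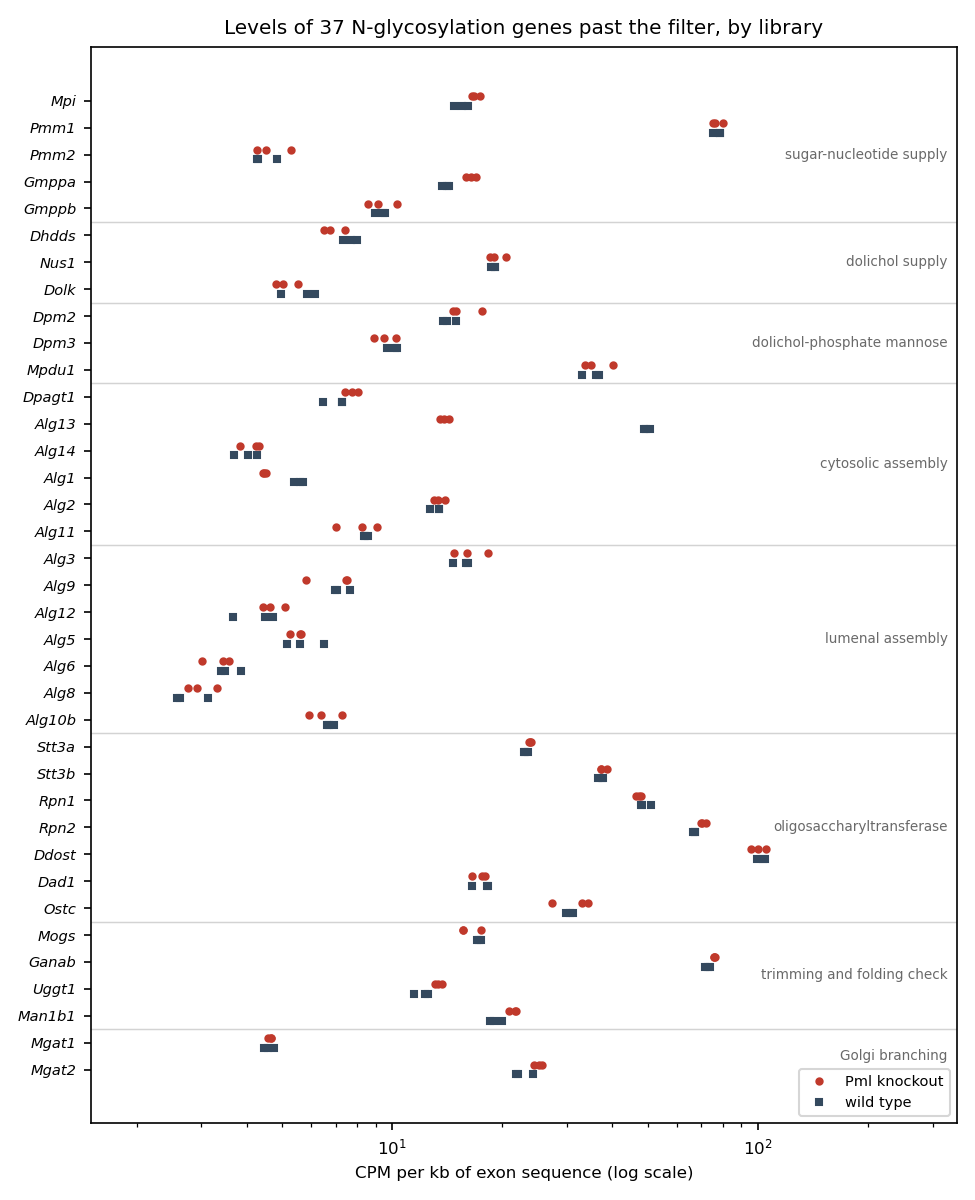
CPM per kb of merged exons (log axis) of the 37 genes that passed the filter, grouped by pathway step, in each Pml knockout library (red circles, upper row of each gene) and each wild-type library (dark squares, lower row). Alg13 lies in the middle of the genes in the knockout and among the high genes in wild type, and the points of most other genes lie over each other.

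The other 36 genes tested differed little between the groups. By limma, at the adjusted threshold of 0.05, 3 were higher in knockout cells and 1 was lower, and 32 did not pass. The share called was thus 11.1%, against 14.0% of the 12435 genes tested, of which 6.54% were higher and 7.49% lower. The median log2 fold change was 0.03, against 0.00463 over all genes tested, and the range ran from -0.30 to 0.22. Knockout and wild-type libraries did not overlap for 11 of the 36 (30.6%), against 30.2% of all genes tested, with the knockout above in 9 and below in 2; over all genes the knockout was above in 15.1% and below in 15.0%. The share called and the total share without overlap are near those of all genes. The directions are not, with 9 above against 2 below where all genes were nearly even. This lean was not tested. The count of 4 called genes was also 4 with edgeR (14.6% of all genes called), but 0 with DESeq2 (4 at an unadjusted p under 0.05; 6.58% of all genes called) and between 1 and 3 when 1 library was left out. At a false discovery rate under 0.05, the authors' deposited table has Uggt1, Man1b1 and Gmppa higher, 3 of the 37 genes other than Alg13. Alg13, which led to the choice of the set, is left out of this count. Of its 24421 genes, the authors' deposited table has 6.36% under this rate, 2.57% higher and 3.79% lower. That share includes genes below the filter on low counts, which 12435 genes passed. Of the 37 members other than Alg13, 36 passed it, so the share is not a like background for them.

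**Figure D3:**
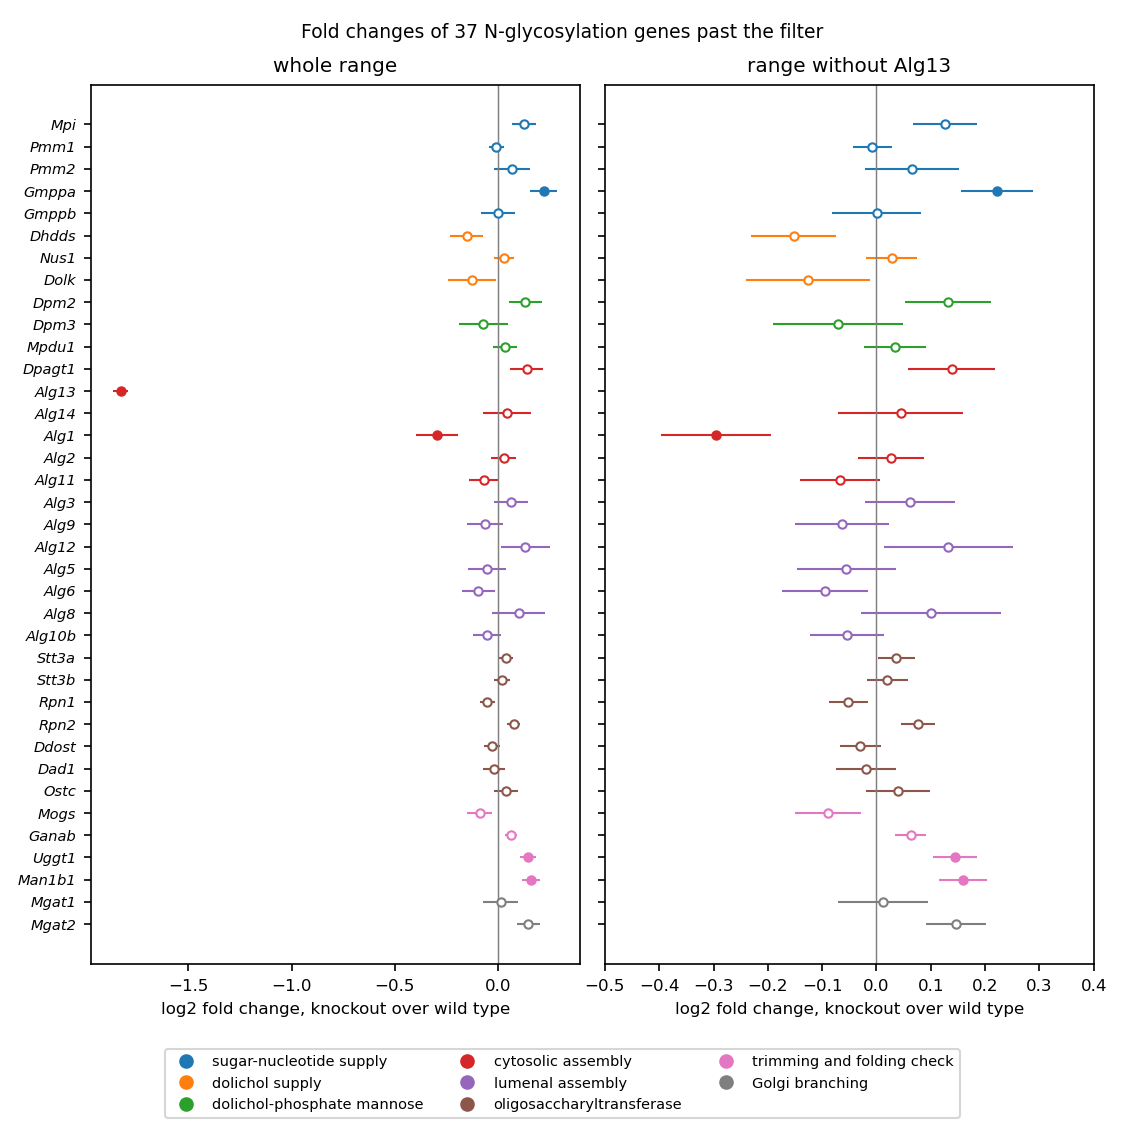
Log2 fold change (knockout over wild type, on the log2(CPM + 1) scale) with its SE for the 37 genes that passed the filter, in pathway order, over the whole range (left) and over a narrower range that leaves out Alg13 (right). Colours mark the pathway steps. Filled points are genes past an adjusted p of 0.05, and Alg13, which was not tested; Alg13 lies at -1.83 and the others between -0.30 and 0.22.

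Among the genes that supply activated mannose, Gmppa rose and the other 4 tested did not pass. Gmppa encodes a regulatory relative of the enzyme that makes GDP-mannose. It had 40.5, 39.3 and 38.1 CPM in knockout libraries, against 34.31, 33.7 and 32.7 CPM in wild-type libraries. The groups did not overlap, with a log2 fold change of 0.22 (SE 0.0663, limma adjusted p = 0.0226). The call was lost without knockout replicate 1, wild-type replicate 2 or wild-type replicate 3, with adjusted p = 0.0736, 0.067 and 0.088, and with DESeq2 (0.168). Gmppb, the catalytic partner of Gmppa, stood at 26.0 ± 2.46 CPM in knockout cells and 26.0 ± 0.864 CPM in wild-type cells (95% interval of the log2 fold change -0.17 to 0.17). Mpi, which makes mannose 6-phosphate from fructose 6-phosphate, had 54.7, 51.8 and 52.7 CPM in knockout libraries and 46.3, 48.6 and 50.7 CPM in wild-type libraries. Its groups did not overlap either, yet the adjusted p was 0.156. The phosphomannomutase genes did not pass: Pmm1 had 215, 230.3 and 219 CPM in knockout libraries and 226, 226 and 216 CPM in wild-type libraries. Pmm2 had 29.3, 24.98 and 23.6 CPM in knockout libraries and 23.5, 26.7 and 23.8 CPM in wild-type libraries.

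Genes that make the dolichol carrier and its mannose donor did not pass the test in 6 of 6 cases; limma, edgeR and DESeq2 called 0, and 0 had an unadjusted p under 0.05. Nus1, a subunit of the cis-prenyltransferase that makes the dolichol chain, had 99.5, 92.5 and 90.3 CPM in knockout libraries and 90.8, 93.1 and 92.9 CPM in wild-type libraries. Its partner Dhdds averaged 26.1 ± 1.79 CPM in knockout cells and 29.1 ± 1.32 CPM in wild-type cells (adjusted p = 0.205 with limma). The dolichol kinase gene Dolk had 10.2, 11.6 and 10.6 CPM in knockout libraries and 12.9, 12.3 and 10.4 CPM in wild-type libraries. The ranges of these 3 genes overlapped. Mpdu1, which is needed for use of dolichol-linked mannose, had 84.4, 97.3 and 81.3 CPM in knockout libraries and 89.1, 87.2 and 80.0 CPM in wild-type libraries. Dpm3, the small subunit that tethers dolichol-phosphate mannose synthase, had 8.70, 9.41 and 8.17 CPM in knockout libraries and 8.87, 9.49 and 9.37 CPM in wild-type libraries. Dpm2, its regulatory subunit, averaged 31.0 ± 3.23 and 28.1 ± 1.14 CPM in knockout and wild-type cells. Dpm1, the catalytic subunit, was below the filter, with 11 reads over the knockout libraries and 5 over the wild-type libraries. Exons of Dpm1 overlap those of another annotated gene, Gm20716, and how reads of the overlap were assigned is not given in the sources used here.

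Of the other 5 genes of cytosolic assembly, 1 passed. Alg1, which adds the first mannose, had 11.9, 12.1 and 11.96 CPM in knockout libraries, against 14.5, 15.01 and 15.3 CPM in wild-type libraries. Every knockout library lay below every wild-type library, with a log2 fold change of -0.30 (SE 0.101, limma adjusted p = 0.0495). That call is marginal. It was lost without any 1 of the 6 libraries, with adjusted p = 0.0912, 0.0583 and 0.102 without knockout replicates 1, 2 and 3 and 0.0992, 0.137 and 0.147 without wild-type replicates 1, 2 and 3. Without the filter its adjusted p was 0.0952, and with DESeq2 it was 0.26. Exons of Alg1 overlap those of Eef2kmt on the opposite strand, which averaged 27.7 ± 1.37 CPM in knockout cells and 29.0 ± 1.17 CPM in wild-type cells (adjusted p = 0.638); strandedness is not given in the sources used here, so reads of the overlap cannot be told apart. Dpagt1, which starts the chain by moving N-acetylglucosamine phosphate to dolichol phosphate just before the step of Alg13, averaged 26.5 ± 1.13 CPM in knockout cells and 24.0 ± 1.64 CPM in wild-type cells (log2 fold change 0.14, adjusted p = 0.274 with limma); its groups did not overlap. The mannosyltransferase gene Alg2 had 46.0, 48.2 and 44.9 CPM in knockout libraries and 46.3, 46.4 and 43.8 CPM in wild-type libraries. Alg11, which adds the last mannoses on this face, averaged 40.2 ± 5.08 CPM in knockout cells and 42.0 ± 0.579 CPM in wild-type cells.

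Of the 7 tested mannosyl- and glucosyltransferase genes grouped under lumenal assembly, 0 passed limma. An unadjusted p under 0.05 was found for 0, and edgeR and DESeq2 called 0. Alg10b, which adds the last glucose, had 42.5, 39.3 and 48.4 CPM in knockout libraries and 44.2, 44.6 and 46.1 CPM in wild-type libraries. Alg8, which adds the glucose before it, had 9.23, 7.70 and 8.17 CPM in knockout libraries and 7.33, 7.17 and 8.73 CPM in wild-type libraries. For each of the 7 genes the knockout and wild-type ranges overlapped. The log2 fold changes of Alg3, Alg9, Alg12, Alg5 and Alg6 were 0.06, -0.06, 0.13, -0.06 and -0.10.

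Subunits of the oligosaccharyltransferase had log2 fold changes between -0.05 and 0.08. Of these 7 genes, 0 passed the adjusted threshold with limma, edgeR or DESeq2, and 1, Rpn2, had an unadjusted limma p under 0.05. Rpn2, the ribophorin II gene, had 319, 311 and 309 CPM in knockout libraries and 298, 298 and 294 CPM in wild-type libraries (adjusted p = 0.104). Its knockout libraries all lay above the wild-type libraries, as did those of Stt3a by a small margin, while those of Rpn1 lay below. Stt3a, the catalytic subunit that acts as proteins enter the reticulum, averaged 213 ± 1.02 CPM in knockout cells and 208 ± 2.86 CPM in wild-type cells. Stt3b, the catalytic subunit of the complex that acts on sites skipped by the other, averaged 159 ± 3.53 CPM in knockout cells and 157 ± 2.43 CPM in wild-type cells. The 95% intervals of their log2 fold changes, -0.03 to 0.11 and -0.06 to 0.10, leave room for changes up to those bounds. Rpn1, Ddost and Ostc, further subunits, had log2 fold changes of -0.05, -0.03 and 0.04. Dad1, a small subunit of the complex, had 70.4, 69.1 and 64.6 CPM in knockout libraries and 71.3, 71.2 and 64.5 CPM in wild-type libraries.

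Among genes that trim the transferred chain and check folding, Uggt1 and Man1b1 rose and Ganab and Mogs did not pass. Uggt1, the glucosyltransferase that marks unfolded glycoproteins for another round of folding, had 176, 168 and 172 CPM in knockout libraries, against 148, 158 and 160.5 CPM in wild-type libraries. Man1b1, a mannosidase that marks glycoproteins for degradation, had 117, 112 and 117 CPM in knockout libraries, against 108, 102 and 100.01 CPM in wild-type libraries. For both genes every knockout library lay above every wild-type library. Log2 fold changes were 0.14 for Uggt1 (SE 0.0399, limma adjusted p = 0.0131) and 0.16 for Man1b1 (SE 0.0441, limma adjusted p = 0.0135). The Uggt1 call was lost without knockout replicate 1 (adjusted p = 0.054), without wild-type replicate 1 (0.128) and with DESeq2 (0.0708). That of Man1b1 was lost without knockout replicate 3 (0.0633) and with DESeq2 (0.0889). Leaving out replicate 2 or 3 of the wild type also ended it (0.0598 and 0.0814). Exons of Man1b1 overlap those of the antisense gene AA543186, which had at most 0.634 CPM in any library. In all, 12 of the 38 genes share exonic bases with another annotated gene, as do Man2a1, Fut8, Slc35a3 and Pdia4 among the genes described further on. Ganab, the catalytic subunit of glucosidase II, had 414, 416 and 414 CPM in knockout libraries and 402, 389.9 and 398 CPM in wild-type libraries (adjusted p = 0.156). Mogs, glucosidase I, had 45.1, 50.6 and 45.2 CPM in knockout libraries and 50.7, 49.9 and 49.3 CPM in wild-type libraries. In the Golgi, Mgat2, which starts the second antenna, had 63.9, 65.9 and 67.3 CPM in knockout libraries and 63.3, 57.0 and 57.6 CPM in wild-type libraries. Its groups did not overlap (limma adjusted p = 0.0759, and 0.0443 without wild-type replicate 1). Mgat1, which starts the first antenna, had 22.0, 22.1 and 21.6 CPM in knockout libraries and 21.1, 21.6 and 22.5 CPM in wild-type libraries.

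Other genes of the pathway, listed by role, were called at a similar rate. Of 39 genes, 37 passed the filter, and 3 of these were higher and 2 lower in the knockout, or 13.5%, against 14.0% of all genes tested. Their median log2 fold change was 0.02. Man2a1, a Golgi mannosidase, had 104, 108 and 107 CPM in knockout libraries and 80.9, 90.6 and 86.5 CPM in wild-type libraries (log2 fold change 0.31, SE 0.0477, limma adjusted p = 3.14e-05). Fut8, which adds the core fucose, rose by 0.21 and Slc35a3, a Golgi transporter of UDP-N-acetylglucosamine, by 0.25 on the log2 scale. Canx, the membrane lectin chaperone calnexin, fell by 0.14 (limma adjusted p = 0.000504), whereas its soluble relative Calr stood at 759 ± 13.1 CPM in knockout cells and 750.4 ± 11.3 CPM in wild-type cells. Mgat4b, a branching enzyme, fell by 0.24. Man2a1 and Canx kept their calls under each alternative run. Fut8 lost its call without knockout replicate 3 (adjusted p = 0.0663), Mgat4b without knockout replicate 3 (0.0699) and without wild-type replicate 1 (0.0515). Slc35a3, at an adjusted p of 0.0494, lost its call without knockout replicates 1, 2 and 3 (0.0676, 0.0899 and 0.107) and without wild-type replicates 1 and 2 (0.166 and 0.17), and also with no filter (0.0835) and with TMM scaling (0.055). None of the 3 passed with DESeq2 (0.0534, 0.0742 and 0.256).

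Genes for the synthesis of UDP-N-acetylglucosamine, the donor that Alg13 uses, did not pass in limma, edgeR or DESeq2 (0 of 4, and 0 at an unadjusted p under 0.05). Gfpt1, which commits fructose 6-phosphate to this route, averaged 49.9 ± 4.25 CPM in knockout cells and 46.3 ± 2.50 CPM in wild-type cells. Of the 16 genes of the unfolded protein response, which raises chaperones when folding in the endoplasmic reticulum fails, 0 rose and 2 fell, and 14 did not pass. The share called was 12.5%, near the 14.0% of all genes tested. Pdia4, a disulfide isomerase, had 173, 179 and 176 CPM in knockout libraries and 205, 210.0 and 212 CPM in wild-type libraries (log2 fold change -0.25, SE 0.0358, limma adjusted p = 1.11e-05). Xbp1, a transcription factor of the response, fell by 0.24. Hspa5, the main chaperone of the reticulum, averaged 546 ± 21.3 CPM in knockout cells and 519 ± 2.85 CPM in wild-type cells (adjusted p = 0.112), and Ddit3, a factor of prolonged stress, averaged 8.12 ± 1.07 and 9.53 ± 0.687 CPM. Of the 16, edgeR and DESeq2 called 2.

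**Figure D4:**
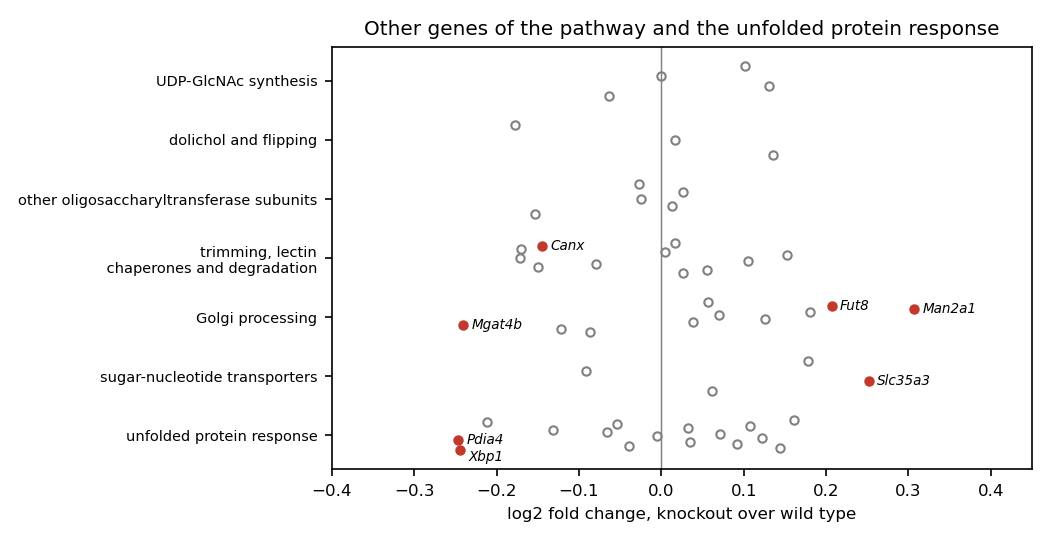
Log2 fold change (knockout over wild type) of the 37 other pathway genes and the 16 unfolded protein response genes tested, by role. Filled red points with names passed an adjusted p of 0.05; Man2a1 lies highest at 0.31 and Pdia4 lowest at -0.25.

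Alg13 is the 1 member of the 38 on chromosome X (GENCODE M21, mm10, 144317804 to 144374450, + strand); the 38 genes lie on 16 chromosomes. Of 433 other X-linked genes tested, 49 were higher and 46 lower, so 21.9% were called, against 14.0% of all genes tested, with a median log2 fold change of 0.02. A log2 fold change below that of Alg13 was found for 14 of them, and for 25 of all 12435 genes tested. Of 7 other X-linked genes of glycosylation, 3 rose, 0 fell and 4 did not pass with limma or edgeR. Atp6ap1, an accessory subunit of the vacuolar proton pump, had 88.1, 84.8 and 91.5 CPM in knockout libraries and 72.5, 78.4 and 67.6 CPM in wild-type libraries (log2 fold change 0.27, limma adjusted p = 0.000588). Ogt, which attaches single N-acetylglucosamines to nuclear and cytosolic proteins, rose by 0.19 and Piga, the start of GPI anchor synthesis, by 0.18. Piga lost its call without knockout replicates 1 and 3 (adjusted p = 0.0514 and 0.191), without wild-type replicates 1, 2 and 3 (0.0567, 0.0971 and 0.0903), with no filter (0.0554) and with DESeq2 (0.133). Magt1, an oligosaccharyltransferase subunit also counted among the other pathway genes, stood at 57.3 ± 1.93 CPM in knockout cells and 56.4 ± 4.47 CPM in wild-type cells.

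The nearest tested genes on the chromosome were far from Alg13 and at low levels. Capn6, which starts 0.516 Mb before it, had 0.527, 1.03 and 1.38 CPM in knockout libraries and 1.18, 1.07 and 2.45 CPM in wild-type libraries (adjusted p = 0.329). Amot, which starts 1.13 Mb after it, had 1.85, 3.08 and 2.53 CPM in knockout libraries and 1.45, 1.26 and 1.38 CPM in wild-type libraries. The Amot groups did not overlap, and the limma adjusted p was 0.0565, or 0.0262 without knockout replicate 1. Between these neighbours the table lists 8 further genes, with at most 2.13 CPM in any library. Of the 5 nearest tested genes on each side, 1 of 10 was called, against 14.0% of all genes and 21.9% of the other X-linked genes tested. Tmem164, which starts 1.64 Mb before Alg13, averaged 22.3 ± 1.10 CPM in knockout cells and 31.9 ± 0.811 CPM in wild-type cells (log2 fold change -0.49, SE 0.0767, limma adjusted p = 3e-05).

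**Figure D5:**
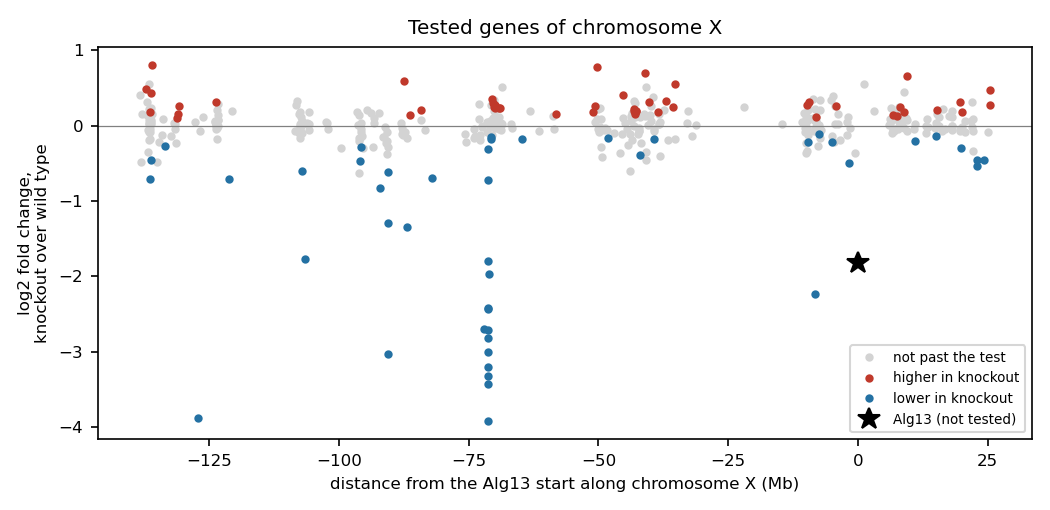
Log2 fold change (knockout over wild type) of the tested genes of chromosome X against the distance of their start from that of Alg13, in Mb. Red points passed an adjusted p of 0.05 and are higher in knockout cells, blue points passed and are lower, grey points did not pass, and the star is Alg13 at -1.83; within 2 Mb the 1 called gene is Tmem164 at -0.49.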

How the data were processed

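Polyadenylated RNA of 3 Pml knockout and 3 wild-type samples of E14 cells was sequenced after TruSeq library preparation. The submitters' processing notes name cutadapt, TopHat, edgeR and the mm10 build. No source used here gives their versions, the annotation, the counter or strandedness. The authors deposited CPM per gene, with their log2 fold changes, p-values and false discovery rates; the table's 25833 rows came to 24421 genes after 1097 rows without values and 315 repeats were removed, and 27 symbols had become dates. All CPM values (100% within 0.01) gave whole reads, so library totals were recovered (3 reads are 0.272 to 0.513 CPM). Replicates differed by more than sampling noise (chi-square per degree of freedom 1.33 to 1.64).

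From the deposited CPM, log2(CPM + 1) was tested with limma 3.58.1 (trend) in R 4.3.3, after edgeR 4.0.16 filterByExpr, with Benjamini-Hochberg adjustment over 12435 genes at 0.05. Alternatives were a pseudocount of 0.25, no filter, TMM scaling, edgeR's quasi-likelihood test, DESeq2 1.42.0, each library left out, and a replicate block. The count tests used the recovered reads. Intervals from reads cover counting error only. Members and lists were chosen with earlier results of these data known. Values in every library are given for Alg13, Alg14, called members and the members with the highest and lowest mean CPM in each step; from the other lists and the neighbours, the called genes and the nearest neighbours are named, some with means or fold changes alone. Mpi, Gmppb and other genes outside this rule were named after their values were seen, to account for the members. The limma test was also run on simulated counts with the same spread set for every gene, unlike the data. The planted changes were larger than those of the called members, so that run does not cover changes of their size.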

Additional observations from a re-analysis of the deposited data

How the results depend on the processing

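The calls among the other 36 members changed with the tool and when 1 library was left out. DESeq2 called 0 of them (4 at an unadjusted p under 0.05), against 4 with limma and 4 with edgeR, and leaving out 1 library gave 1 to 3. Without 1 library, the log2 fold change ran from -0.32 to -0.28 for Alg1 and from 0.20 to 0.24 for Gmppa. Those of Uggt1 and Man1b1 ran from 0.11 to 0.17 and from 0.14 to 0.19. Of the other pathway genes DESeq2 called 2, against 5, and leaving out 1 library gave 2 to 6. Over all genes DESeq2 called 802, against 1745, and leaving out 1 library gave 1160 to 1852, lowest without wild-type replicate 2. X-linked glycosylation calls ran from 2 to 3 and unfolded protein response calls from 2 to 3 without 1 library, and neighbour calls from 1 to 2, with Amot added without knockout replicate 1. The difference between Alg13 and Alg14 stayed between -1.92 and -1.83. Among single genes, 376 values counted as unchanged, 39 lost a call and 5 gained one. The 376 include 12 of Alg13, which has no test and was judged by the size of its fold change. The others of the 376 kept their side of the threshold. The sign of the log2 fold change turned in 16 values of 9 genes, all from leaving out 1 library and all of genes not called, Alg14 among them (-0.01 without wild-type replicate 1). Genes with few reads, such as Alg14 and Dpm3, allow larger changes to go unseen.

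The labels do not say whether replicate numbers pair the samples, and the main test did not pair them. Correlations of same-numbered deviations were 0.0972, 0.107 and 0.0394, and every library correlated best with its own number. This is a hint of pairing from the data and not from the design, so whether the samples were paired cannot be told. With the replicate block 2337 genes, 6 members (Mgat2 and Rpn2 added), 5 unfolded protein response genes and 2 neighbours (Amot added) were called. The cause of these shifts was not tested.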
